A study of Mus musculus with 10 samples.

Results

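The erythroid genes examined here were 9 genes of the red blood cell lineage, Hba-a1, Hba-a2, Hbb-bs, Hbb-bt, Alas2, Slc4a1, Klf1, Epor and Tfrc, followed through the read counts of all 10 RNA-seq libraries of an osteocyte preparation from mouse bone. They were taken by name from the 22548 genes of the deposited table, and no measured value entered the rule. All 9 were in the table, and all 9 passed the filter on low counts. Osteocytes are the cells embedded in mineralized bone. The 9 genes, apart from Tfrc, mark another lineage, that of the marrow, while Tfrc is also expressed by dividing cells of other types.

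All 10 mice were C57BL/6 males of 8 weeks, and each mouse gave 1 library of total RNA. The 5 MM mice had received cells of the murine myeloma line Vk12598 by injection into the femur. The 5 No MM mice were controls without myeloma cells, for which the paper's methods describe injection of the same volume of PBS. Osteocytes were isolated weeks after the injection. The age is that of the labels, and whether it is the age at injection or at isolation is not given in the sources used here. In both groups the marrow was removed first, the bone pieces were treated with collagenase, and the pellets freed by alternating EDTA and collagenase were collected as osteocytes, with no sort on a cell marker described. The MM group rests on a single myeloma line. Libraries are named here by group and mouse number, from No MM 1 to No MM 5 and from MM 6 to MM 10.

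Red blood cells arise in the marrow from erythroblasts that divide, fill with hemoglobin and then lose the nucleus. The hormone erythropoietin, through its receptor, keeps early erythroblasts alive, and transcription factors of the GATA and KLF families switch on the globin, heme and membrane genes. Iron enters the cell bound to transferrin, is built into heme in the mitochondrion, and heme is joined to alpha and beta globin chains. Reticulocytes, the young red cells just released from the marrow, still carry globin RNA.

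The 10 libraries held between 31099174 and 39466332 counted reads. The detection floor, set here at 3 counts, corresponds to 0.0709 to 0.114 CPM. CPM, the usual per-library scaling of read counts, is here the count divided by the library total after adjustment by TMM (trimmed mean of M values). The defining osteocyte genes Dmp1 and Sost were detected in every library, at 112 to 885 CPM and 68.3 to 995 CPM. Among the controls, 2 libraries stood apart from the rest, No MM 3 and No MM 4. Immunoglobulin genes took 26.6% and 29.0% of their counts, against 0.637% to 3.86% in the other 8 libraries, although their label is that of mice without myeloma. Over the 16186 genes tested, 20.7% had their 2 lowest values in these libraries and 24.0% their 2 highest. Comparisons of the groups are therefore also given without No MM 3 and No MM 4.

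The promoters of the erythroid genes are shown for the short motifs that erythroid transcription factors read. The part of such motifs in the shared movement of 7 of the 9 genes across the libraries was not tested. RefSeq (GRCm38.p6) held promoter windows for 8 of the 9 genes, Slc4a1 being the exception, and the 250 bases before the RefSeq start site were searched on both strands for the TATA box word TATAA, the promoter word CCAAT, the word CACCC that KLF factors bind, and the word AGATAA, with its variant TGATAA, that GATA factors bind. The stretches below run 5′ to 3′ on the strand of the gene, with every match in capitals, also where it reads on the other strand (TTATCT, with its variant TTATCA, for the GATA motif, and likewise GGGTG in place of the KLF motif). Each stretch was ended where it had run 30 bases into the gene as the deposited table places it.
Hba-a2: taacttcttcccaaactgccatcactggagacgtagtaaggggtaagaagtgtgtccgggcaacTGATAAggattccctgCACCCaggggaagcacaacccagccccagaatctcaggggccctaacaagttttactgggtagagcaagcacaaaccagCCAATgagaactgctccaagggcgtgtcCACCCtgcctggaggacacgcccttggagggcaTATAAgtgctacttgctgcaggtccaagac
Hbb-bt: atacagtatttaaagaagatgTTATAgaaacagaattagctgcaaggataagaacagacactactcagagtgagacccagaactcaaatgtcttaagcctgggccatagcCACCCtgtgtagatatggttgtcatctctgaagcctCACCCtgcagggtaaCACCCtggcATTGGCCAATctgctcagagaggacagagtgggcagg
Alas2: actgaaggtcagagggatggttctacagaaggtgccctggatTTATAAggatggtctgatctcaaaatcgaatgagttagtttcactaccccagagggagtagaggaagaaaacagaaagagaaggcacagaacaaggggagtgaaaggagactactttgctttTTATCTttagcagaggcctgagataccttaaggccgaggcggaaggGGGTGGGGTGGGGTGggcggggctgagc
Klf1: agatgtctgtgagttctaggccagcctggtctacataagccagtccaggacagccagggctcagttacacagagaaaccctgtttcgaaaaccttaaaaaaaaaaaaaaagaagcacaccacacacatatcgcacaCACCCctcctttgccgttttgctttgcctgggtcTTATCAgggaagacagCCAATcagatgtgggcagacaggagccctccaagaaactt
Epor: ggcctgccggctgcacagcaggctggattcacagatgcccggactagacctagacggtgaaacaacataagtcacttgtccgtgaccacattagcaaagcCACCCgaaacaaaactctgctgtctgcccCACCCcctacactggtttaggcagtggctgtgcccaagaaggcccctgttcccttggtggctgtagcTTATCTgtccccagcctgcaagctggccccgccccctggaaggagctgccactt
Tfrc: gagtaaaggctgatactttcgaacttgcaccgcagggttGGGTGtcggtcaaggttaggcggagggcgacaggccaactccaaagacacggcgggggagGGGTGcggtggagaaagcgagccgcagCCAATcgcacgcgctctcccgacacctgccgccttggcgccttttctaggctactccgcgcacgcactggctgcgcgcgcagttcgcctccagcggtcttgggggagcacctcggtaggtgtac

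These stretches lie at chr11:32296242-32296491 for Hba-a2 on the plus strand, chr7:103813967-103814173 for Hbb-bt on the minus strand, chrX:150547167-150547404 for Alas2 on the plus strand, chr8:84901732-84901957 for Klf1 on the plus strand, chr9:21963577-21963826 for Epor on the minus strand and chr16:32608646-32608895 for Tfrc on the plus strand, the first of 2 Tfrc windows. In the whole 250-base windows, a GATA motif was found for 6 of the 8 genes and in 16.6% of all 32851 RefSeq windows of the same length. CACCC was found for 8 of the 8 genes and in 52.0% of all windows. Both motifs together were found for 6 of the 8 genes and in 7.11% of all windows. Hbb-bt and Tfrc were the genes without a GATA match. For Hbb-bt, CCAAT was found at positions -75 to -71 from the start site. TATAA was found at -28 to -24, past the end of the printed stretch. The TTATA in capitals in the Hbb-bt stretch is a match on the other strand, at -229 to -225. TATAA was found for 6 of the 8 genes and in 22.8% of all windows, and CCAAT for 6 of the 8 genes and in 33.8% of all windows. A match in any window of a gene counted, while the shares are per window. For Tfrc, TATAA was found only in the second window, at -172 to -168, which is not printed. Such a match is a description of the letters in the window. The 2 alpha globin windows hold the same letters shifted by 3 bases, so they do not count as independent matches.

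The globin genes come in near-identical pairs, which limits how far their counts can be told apart. The longest open reading frames of Hba-a1 and Hba-a2 differ at 1 of 426 bases, and those of Hbb-bs and Hbb-bt at 1 of 441 bases (GENCODE M21). Of the 76-base stretches, the read length of these libraries, in the Hba-a1 transcript, 62.0% occur unchanged in Hba-a2 transcripts, and 80.8% of those of Hba-a2 occur in Hba-a1. For Hbb-bs and Hbb-bt the shares are 64.2% and 56.5%. How reads that fit both copies were counted is not given in the sources used here, so the split within each pair is uncertain and the sums over the pairs are the firmer values.

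The 4 adult globin genes, which encode the protein chains of hemoglobin, were the highest of the 9 genes per length (FPKM, counts scaled by gene length and library depth) in every library. In CPM, which is not scaled by length, Hba-a2 lay below Alas2, Slc4a1 or Tfrc in some of them, and Hbb-bt lay below Tfrc in No MM 3. The 4 genes took 4.60%, 2.73%, 0.0647%, 0.189% and 1.03% of all counts in No MM 1 to No MM 5, and 0.767%, 1.37%, 0.992%, 2.72% and 2.08% in MM 6 to MM 10. The highest and the lowest share were both in the No MM group, with 95% Wilson intervals of 4.59% to 4.60% in No MM 1 and 0.0639% to 0.0655% in No MM 3, which cover counting error only. The No MM mean was 1.72% ± 1.93 (SD, n = 5), 2.79% ± 1.78 (SD, n = 3) without No MM 3 and No MM 4, and 1.01% ± 1.23 (SD, n = 4) without No MM 1. The MM mean was 1.59% ± 0.808 (SD, n = 5), above the No MM mean without No MM 1 and below it otherwise. The difference between the group means was smaller than the SD of either group, and in both other settings it was still smaller than the SD of the No MM group.

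Hba-a1, an alpha globin gene at chr11:32283511-32284465 on the plus strand, had 12731, 5347, 166.8, 609.8 and 1779 CPM in No MM 1 to No MM 5. In MM 6 to MM 10 it had 1363, 2623, 2182, 4993 and 3905 CPM. No MM 1 was above and No MM 3 and No MM 4 were below every MM library, so the MM values lay inside the No MM range. Hba-a2, the second alpha globin gene at chr11:32296489-32297298, followed at a lower level, from 47.8 to 3452 CPM in No MM and from 426.2 to 1551 CPM in MM.

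Hbb-bs, a beta globin gene at chr7:103826534-103828096 on the minus strand, had 30764, 16451, 499.6, 1517 and 5903 CPM in No MM 1 to No MM 5. In MM 6 to MM 10 it had 4135, 7348, 4890, 14790 and 11309 CPM. Here too the MM values lay within the No MM range, and the 2 highest libraries of all were No MM 1 and No MM 2. Hbb-bt, the second adult beta globin gene at chr7:103812524-103813996, ran from 111.0 to 7492 CPM in No MM and from 823.0 to 2540 CPM in MM. The embryonic globin genes Hba-x, Hbb-bh1 and Hbb-y had at most 10 counts in any library.

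Alas2 encodes the erythroid form of the first enzyme of heme synthesis and lies at chrX:150547375-150570638 on the plus strand. It had 2332, 1273, 42.3, 160.5 and 541.3 CPM in No MM 1 to No MM 5, and 359.8, 637.5, 511.4, 1081 and 1071 CPM in MM 6 to MM 10. The order of the libraries was close to that of the globins, with No MM 1 at the top and No MM 3 at the bottom. Alas2 shares all 23264 bases of its locus with Apex2 on the opposite strand, and Apex2 held only 308 to 464 counts in any library while Alas2 held 1308 to 61213.

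Slc4a1 encodes band 3, the anion exchanger of the red cell membrane, and lies at chr11:102348824-102366203 on the minus strand. It had 3450, 1582, 55.0, 310.9 and 762.8 CPM in No MM 1 to No MM 5, and 469.8, 958.0, 1208, 1529 and 1602 CPM in MM 6 to MM 10. The groups overlapped, with No MM 1 above and No MM 3 and No MM 4 below all MM libraries.

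Klf1, the erythroid Krüppel-like transcription factor that acts on CACCC motifs of the beta globin gene, lies at chr8:84901928-84905295 on the plus strand. It had 315.0, 113.6, 3.97, 26.1 and 53.4 CPM in No MM 1 to No MM 5, and 29.9, 79.3, 101.9, 95.4 and 90.4 CPM in MM 6 to MM 10. In 4 of the 5 MM libraries it lay between 79.3 and 101.9 CPM, a band inside the wide No MM range.

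Epor, the erythropoietin receptor, lies at chr9:21958899-21963576 on the minus strand. It had 69.7, 51.9, 5.82, 15.5 and 36.2 CPM in No MM 1 to No MM 5, and 25.1, 44.3, 45.2, 80.5 and 69.2 CPM in MM 6 to MM 10. Unlike the genes above, Epor was highest in an MM library, MM 9, but No MM 3 and No MM 4 were again the 2 lowest. Tfrc, the transferrin receptor that dividing cells of many types use to take up iron, lies at chr16:32608920-32632794 on the plus strand. It had 652.0, 476.0, 135.3, 185.9 and 697.7 CPM in No MM 1 to No MM 5, and 377.8, 421.0, 507.8, 582.2 and 807.0 CPM in MM 6 to MM 10. No MM 5 and MM 10 led, and No MM 3 and No MM 4 were below all the rest.

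**Figure D1:**
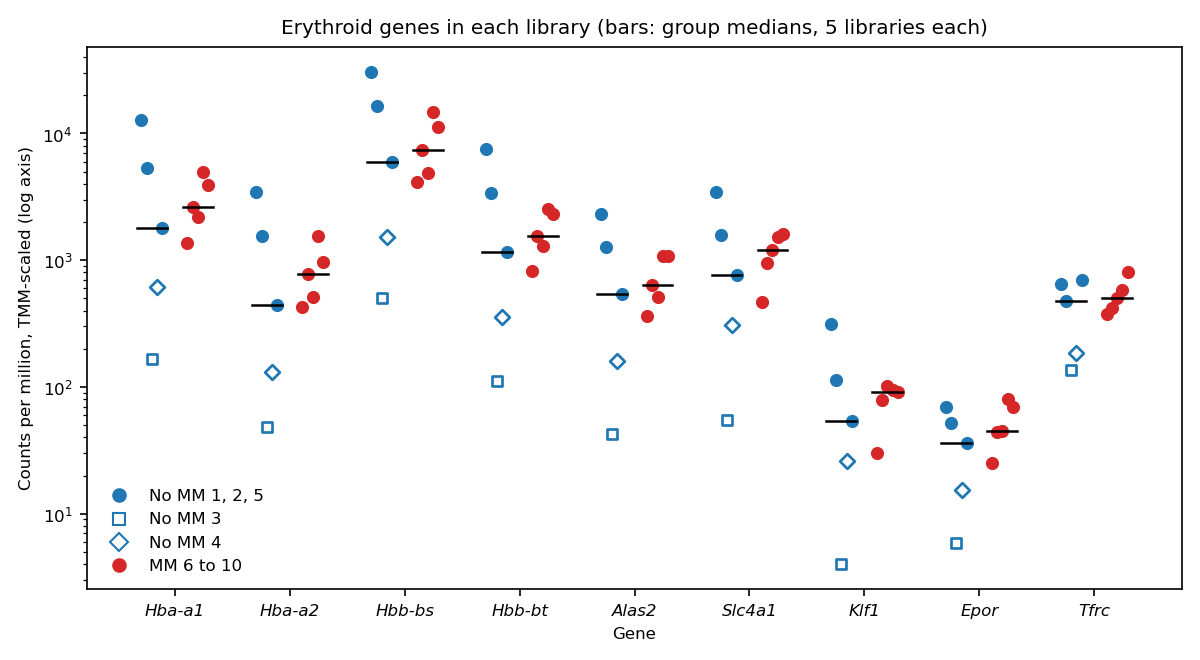
Level in CPM (log axis) of each of the 9 erythroid genes in each library, with No MM in blue, MM in red, No MM 3 and No MM 4 as open symbols and bars at the group medians. The No MM libraries spread from No MM 3, the lowest for all 9 genes, to No MM 1, the highest for 7 of them, for which the MM libraries lie between, while Epor is highest in MM 9 and Tfrc in MM 10.

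The spread of the No MM group was the main feature of the 7 genes other than Epor and Tfrc. Their level differed between the highest and the lowest library of all 10 by 55.2-fold (Alas2) to 79.3-fold (Klf1), but within MM by only 3.005-fold (Alas2) to 3.66-fold (Hba-a1). Over the 8 libraries other than No MM 3 and No MM 4 it differed by 6.48-fold (Alas2) to 10.5-fold (Klf1). The SD of their log2 CPM was 2.30 to 2.52 in No MM and 0.66 to 0.78 in MM. Epor spanned 13.8-fold over all libraries and Tfrc 5.96-fold. No MM 3 was the lowest and No MM 4 the second lowest library for all 9 genes, against a background of 20.7% of tested genes with these 2 libraries lowest. The median of the other 8 libraries was 17.3-fold to 24.9-fold above No MM 3 for the 7 genes, 8.35-fold for Epor and 4.03-fold for Tfrc.

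Between genes, levels were compared per length, as FPKM. The order of the median FPKM over the 10 libraries was Hbb-bs (9501), Hba-a1 (3842), Hbb-bt (2253), Hba-a2 (1301), Alas2 (322.8), Slc4a1 (266.4), Tfrc (106.0), Klf1 (62.1) and Epor (27.4). The 4 globins kept this order in 10 of 10 libraries, within the uncertainty of the split between copies. Alas2 and Slc4a1 were the closest neighbours below them, with a ratio of FPKM between 0.945 in MM 8 and 1.80 in No MM 2. Slc4a1 was above Tfrc in 9 of 10 libraries, the exception being No MM 3, and Tfrc above Klf1 in 9 of 10, the exception being No MM 1. Klf1 was above Epor in all but No MM 3.

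Other gene lists showed that No MM 3 and No MM 4 were not low in erythroid genes alone. Relative to the median of the other 8 libraries, the summed CPM of the 9 erythroid genes stood at -4.10 in No MM 3 and -2.46 in No MM 4 on the log2 scale. The osteoblast list stood at -2.74 and -3.25, the osteoclast list at -2.32 and -2.62, the neutrophil list at -2.04 and -1.83, and the megakaryocyte and platelet list at -2.62 and -1.36. Erythroid genes were thus the lowest of the lists shown in No MM 3, while the osteoblast list was the lowest in No MM 4. The proliferation list stood at -0.26 and -0.33, and none of its 17 genes had its 2 lowest values there, where 20.7% of all tested genes had theirs. The B and plasma cell list stood at 2.82 and 2.83. In these libraries 7 of its 15 genes had their 2 highest and 7 their 2 lowest values, beside 24.0% and 20.7% of all tested genes. Its summed level was 855.1 to 9510 CPM in No MM and 897.6 to 1514 CPM in MM, none of its genes was at 0 in any library, and its part in the erythroid values was not tested.

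**Figure D2:**
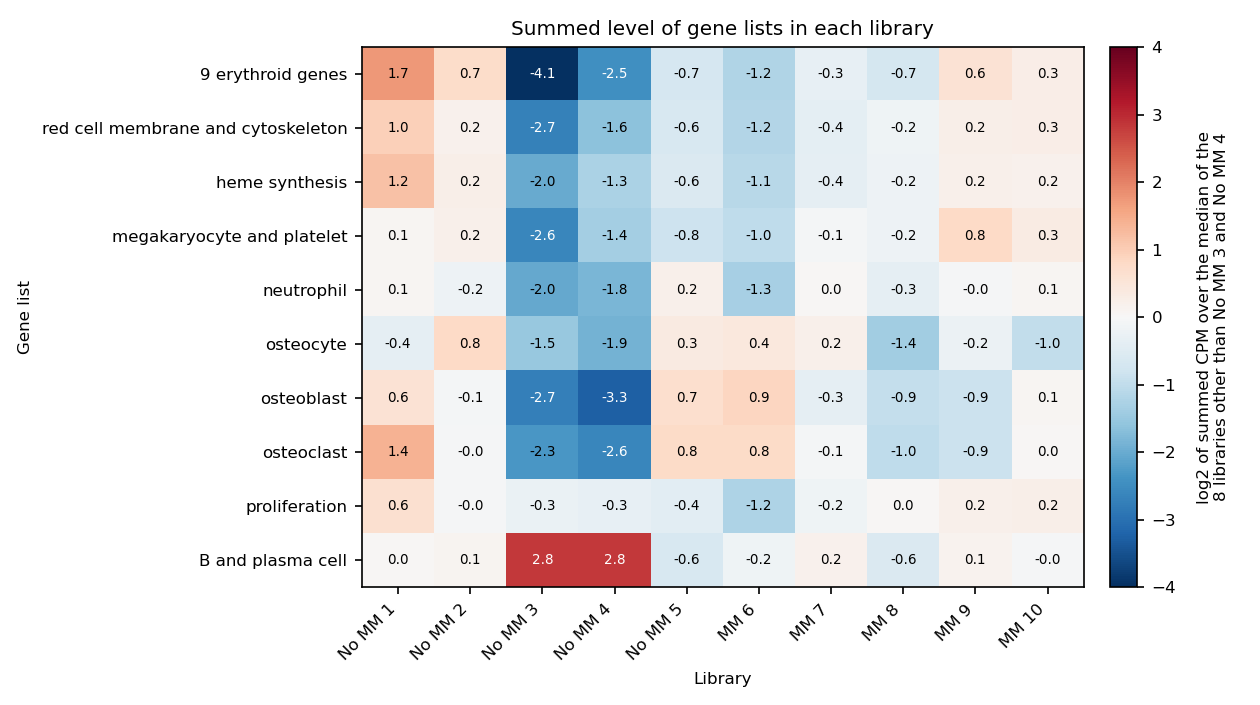
Summed CPM of 10 gene lists in each library, as the log2 ratio to the median of the 8 libraries other than No MM 3 and No MM 4 (blue lower, red higher, values printed). The 9 erythroid genes run from -4.10 in No MM 3 to 1.74 in No MM 1, while the B and plasma cell list is at 2.82 and 2.83 in No MM 3 and No MM 4.

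The comparison of MM with No MM mice detected no difference in the 9 genes. By edgeR's quasi-likelihood test with Benjamini-Hochberg adjustment over 16186 genes, the log2 fold change of MM against No MM was -0.45 for Hba-a1 (SE 0.911), -0.41 for Hba-a2 (SE 0.917), -0.38 for Hbb-bs (SE 0.919) and -0.56 for Hbb-bt (SE 0.883). It was -0.25 for Alas2 (SE 0.820), -0.10 for Slc4a1 (SE 0.810) and -0.37 for Klf1 (SE 0.827), and with library totals in place of TMM the values of Alas2 and Slc4a1 turned to 0.040 and 0.20 while the median of all genes shifted from -0.03 to 0.30. Epor and Tfrc had positive values of 0.56 (SE 0.560) and 0.33 (SE 0.446). The adjusted p lay between 0.658 for Epor and 0.969 for Slc4a1 (edgeR). The SE was larger than the size of the fold change in all of them but Epor. In bulk RNA, fewer erythroid cells and less erythroid RNA per cell cannot be told apart.

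Against the background, 0 of the 9 genes was called at an adjusted p under 0.05, as were 0% of the tested genes in either direction. At an unadjusted p under 0.05, 3.81% of the tested genes were higher and 10.3% lower in MM, and 0 of the 9 erythroid genes were among them (edgeR). The groups were fully separated, with MM on the higher side, for 0.729% of the tested genes and, with MM on the lower side, for 0.68%, and for 0 of the 9 in either direction. DESeq2 called 34 genes higher and 155 lower at an adjusted p under 0.05, and again 0 of the 9.

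The sign of the difference depended on which No MM libraries were included. Without No MM 3 and No MM 4, all 9 values were negative, from -1.27 for Hbb-bt (SE 0.573) and -1.17 for Hba-a1 (SE 0.619) to -0.19 for Tfrc (SE 0.284) and -0.018 for Epor (SE 0.366). Their unadjusted p ran from 0.0528 to 0.962 and their adjusted p from 0.643 to 0.985 (edgeR), so 0 of the 9 passed, where an unadjusted p under 0.05 was found for 2.51% of 16600 genes on the higher side and 3.37% on the lower, and an adjusted p under 0.05 for 0% in either direction. Without No MM 1 alone, all 9 values were positive, from 0.43 for Hbb-bt (SE 0.814) to 0.95 for Epor (SE 0.574), with adjusted p between 0.436 and 0.784 (edgeR). Leaving out No MM 3 alone or No MM 4 alone turned none of the 9 signs, and Slc4a1 also turned, to 0.10, without MM 6. No MM 1 had the highest globin share of all libraries, and No MM 3 and No MM 4 the lowest.

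**Figure D3:**
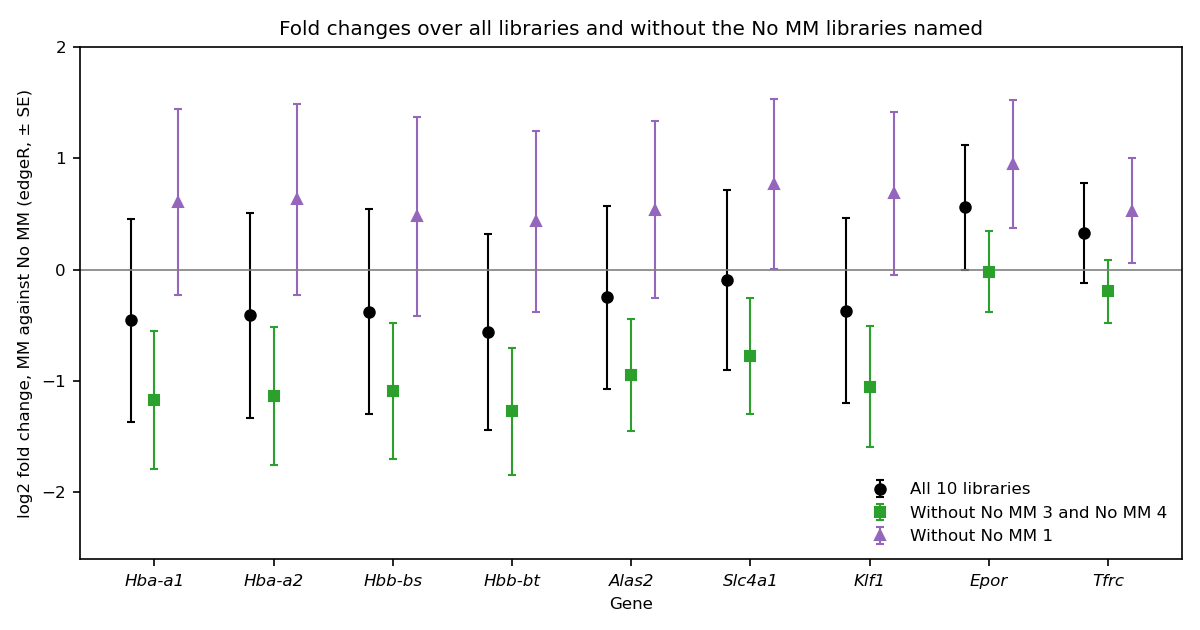
Log2 fold change of MM against No MM for each erythroid gene (edgeR), with bars of 1 SE, over all 10 libraries (black), without No MM 3 and No MM 4 (green) and without No MM 1 (purple). The green values are all below 0, from -1.27 to -0.018, and the purple values all above 0, from 0.43 to 0.95.

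Ratios of 2 genes within a library do not depend on how libraries are scaled, and those among the 7 genes other than Epor and Tfrc spanned a far narrower range than the levels. Alpha globin counts (Hba-a1 and Hba-a2) were 0.315 to 0.436 of beta globin counts (Hbb-bs and Hbb-bt) over the 10 libraries, although the globin share itself ran from 0.0647% to 4.60%. The No MM mean of this ratio was 0.367 ± 0.0427 and the MM mean 0.383 ± 0.0312 (SD, n = 5 each). The 4 globins together were 16.3 to 23.3 times Alas2, with a No MM mean of 19.5 ± 2.87 and an MM mean of 18.9 ± 1.96 (SD, n = 5 each). No MM 3, with the least globin RNA, had a globin to Alas2 ratio of 19.5, close to these means. Hba-a1 was 3.20 to 4.61 times Hba-a2, and Hbb-bs 3.80 to 5.82 times Hbb-bt, both subject to how reads of near-identical copies were counted.

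The ratios of Slc4a1 and Klf1 to Alas2 were somewhat wider, and both were highest in MM 8. Slc4a1 was 1.24 to 1.94 times Alas2 in No MM and 1.31 to 2.36 times in MM. Klf1 was 0.0892 to 0.163 of Alas2 in No MM and 0.0832 to 0.199 in MM. No MM 4 held the second highest value of both ratios, 1.94 for Slc4a1 and 0.163 for Klf1.

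Epor and Tfrc behaved differently, with their share against Alas2 highest where Alas2 was lowest. Epor was 0.0299 of Alas2 in No MM 1, 0.0408 in No MM 2, 0.138 in No MM 3, 0.0966 in No MM 4 and 0.0669 in No MM 5, and 0.0646 to 0.0884 in the MM libraries. Tfrc was 0.280 of Alas2 in No MM 1, 0.374 in No MM 2, 3.20 in No MM 3, 1.16 in No MM 4 and 1.29 in No MM 5, and 0.539 to 1.05 in the MM libraries. The Tfrc to Alas2 ratio thus spanned 11.4-fold over the libraries and the Epor to Alas2 ratio 4.60-fold, against 1.43-fold for globins to Alas2. Both measures contain Alas2, so a low Alas2 raises the ratio by itself.

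For none of the 8 ratios was a difference between MM and No MM mice detected. In the exact permutation test over all assignments of the 10 mice to groups of 5, two-sided, p ran from 0.460 to 0.873, and 0.873 was the adjusted p of each of the 8 ratios (Benjamini-Hochberg). The smallest p this design can give is 0.00794. The largest mean difference was 0.18 on the log2 scale, higher in MM, for Epor to Alas2, although the arithmetic means stood the other way (0.0744 in No MM and 0.0733 in MM). It was followed by -0.17 for Tfrc to Alas2, and without No MM 3 and No MM 4 the latter turned to 0.60 (exact permutation p = 0.321). Without the same libraries Epor to Alas2 stood at 0.75 (exact permutation p = 0.0714, two-sided), the smallest p of any ratio in any setting, and without No MM 1 at -0.090. The other 6 ratios lay between -0.11 and 0.20 without No MM 3 and No MM 4.

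**Figure D4:**
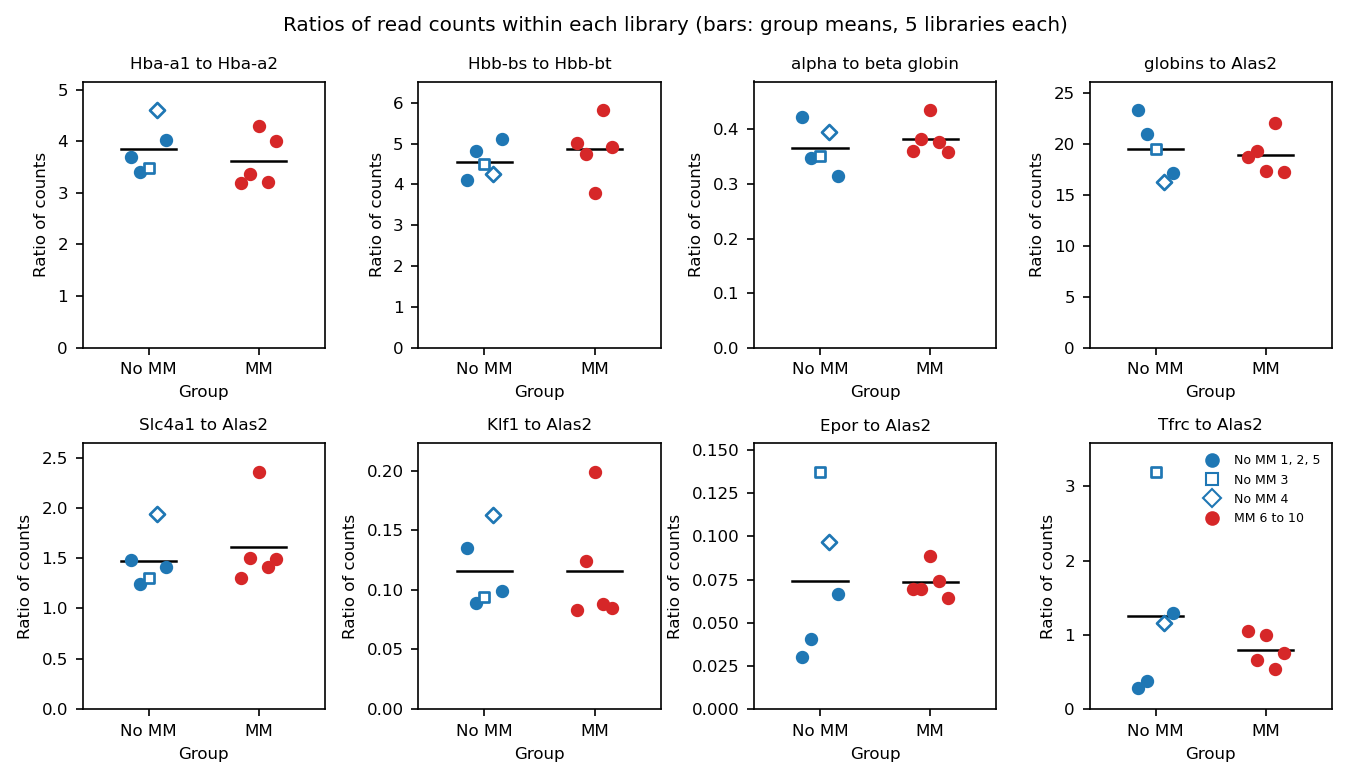
Ratio of read counts within each library for 8 pairs of erythroid genes or sums, by group, with bars at the group means and axes that start at 0. Globins to Alas2 stay between 16.3 and 23.3, while Tfrc to Alas2 runs from 0.280 in No MM 1 to 3.20 in No MM 3.

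The likeness of the genes across libraries set Tfrc apart, while Epor lay closer to the 7 other genes. Over the 10 libraries, Pearson's r of log2 CPM between the 21 pairs of the 7 genes other than Epor and Tfrc was 0.946 to 0.998. Over the 8 libraries without No MM 3 and No MM 4 it was 0.847 to 0.995, so these genes also moved together in the libraries with ordinary immunoglobulin shares. Epor had r of 0.939 to 0.971 with the 7 genes over 10 libraries and 0.763 to 0.867 over 8. Tfrc had r of 0.837 to 0.892 over 10 libraries, which fell to between 0.302 and 0.526 over 8, and its r with Epor was 0.602 over 8. All these values share the same libraries and scaling and are descriptions. An r over 0.9 with Alas2 over the 10 libraries was found for 2.74% of the 16185 other tested genes, 7 erythroid genes of this group among them.

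**Figure D5:**
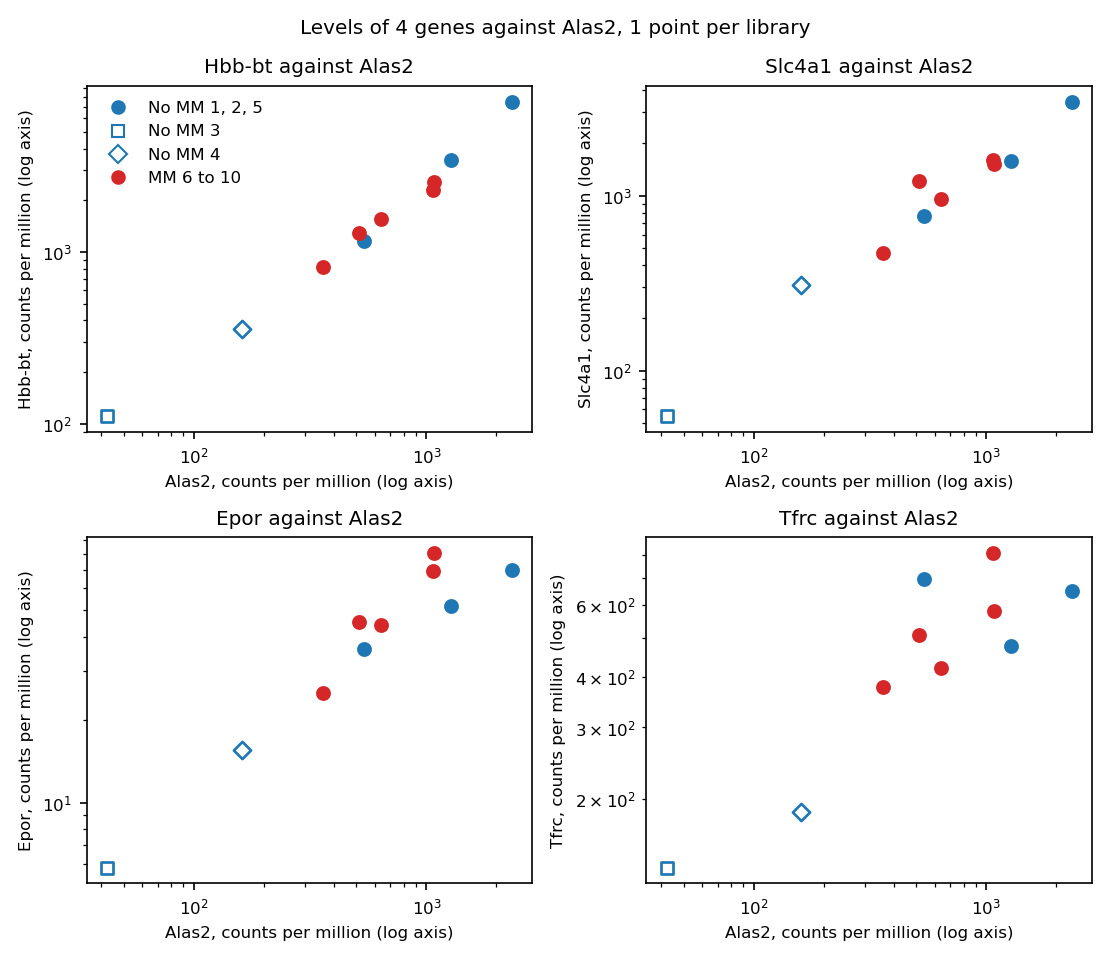
Level of Hbb-bt, Slc4a1, Epor and Tfrc against Alas2 in CPM (log axes), 1 point per library, No MM in blue, MM in red, No MM 3 and No MM 4 as open symbols. Hbb-bt and Slc4a1 lie along a line with Alas2, and Tfrc does not follow Alas2 among the 8 filled points, where it ranges from 377.8 to 807.0 CPM.

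Among the genes outside the group whose level over the 10 libraries was most like that of Alas2 were Sppl2b (r = 0.995, and 0.987 over 8 libraries), Hbq1b (0.992 and 0.988), a minor alpha-like globin gene, Gch1 (0.991 and 0.978) and Btrc (0.990 and 0.983). Those most like Hbb-bt were Ift140, Sertad3, Mkrn1, Aldh1a1 and Fam220a, with r of 0.989 to 0.994. Those most like Epor were Slc14a1, a urea transporter of the red cell membrane, Abcb10, a mitochondrial transporter linked to heme synthesis, Btnl10, 1300017J02Rik and Epb4.2, the membrane skeleton protein 4.2, with r of 0.991 to 0.995. Those most like Tfrc were Syne3, Fbxo10, B3gnt7, Gm17296 and Hdac2, with r of 0.970 to 0.981 over 10 libraries and 0.802 to 0.893 over 8.

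The wider set of erythroid genes was read from lists around the 9 genes. Of 22 red cell membrane and cytoskeleton genes tested, which overlap the 9 in Slc4a1, 0 passed an unadjusted p under 0.05 in either direction (edgeR), where 3.81% of all tested genes were higher and 10.3% lower. Their median log2 fold change was 0.17, against -0.03 over all tested genes, and -0.44 without No MM 3 and No MM 4. Kel, a blood group protein of the membrane, had 64.8 ± 41.3 CPM in the No MM mice and 130.0 ± 55.7 CPM in MM (SD, n = 5 each, adjusted p = 0.470 by edgeR), and its log2 fold change of 1.003 became 0.46 without No MM 3 and No MM 4. Of the 22 genes, 19 had their 2 lowest values in No MM 3 and No MM 4, as did 20.7% of all tested genes.

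The 18 heme synthesis genes had a median log2 fold change of -0.05. Of them, 1 was higher and 0 lower in MM at an unadjusted p under 0.05, beside 3.81% and 10.3% of all tested genes (edgeR). The 1 gene was Ppox, the enzyme of the next to last step, with 83.1 ± 21.01 CPM in No MM and 138.8 ± 48.6 CPM in MM (SD, n = 5 each) and an adjusted p of 0.315 by edgeR. Its groups overlapped, and its log2 fold change of 0.74 became 0.53 without No MM 3 and No MM 4. Alas1, the form of the first enzyme used outside the erythroid lineage, ran from 65.4 to 126.1 CPM over all 10 libraries, a range far narrower than that of Alas2. Without No MM 3 and No MM 4, the heme list moved from a median of -0.05 to -0.54. In that setting 15 of its 18 genes were lower in MM, where 48.4% of all tested genes had a positive value. At an unadjusted p under 0.05, 1 of the 18 was lower, beside 3.37% of 16600 tested genes.

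Of 22 erythroid transcription factors and cofactors, 2 were higher and 0 lower in MM at an unadjusted p under 0.05, beside 3.81% and 10.3% of all tested genes, and none passed adjustment. The median of the list was 0.21, and -0.11 without No MM 3 and No MM 4. Ldb1, a cofactor that bridges GATA factors at globin enhancers, had 109.0, 115.3, 82.8, 113.3 and 123.0 CPM in No MM 1 to No MM 5, and 140.6, 131.9, 152.5, 164.6 and 150.6 CPM in MM 6 to MM 10. All 5 MM libraries were above all 5 No MM libraries, as for 0.729% of all tested genes, with a log2 fold change of 0.45 (SE 0.146) and an adjusted p of 0.315 by edgeR. Without No MM 3 and No MM 4 it was 0.34 (SE 0.135, adjusted p = 0.643 by edgeR). Gata2, a GATA factor of progenitors, had 13.2 ± 4.77 CPM in No MM and 22.2 ± 7.85 CPM in MM (SD, n = 5 each, adjusted p = 0.334 by edgeR). Its groups overlapped too, and its log2 fold change of 0.75 became 0.42 without No MM 3 and No MM 4. Klf1, which stands in this list too, had a negative log2 fold change of -0.37 in the same fit.

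Next were the lists of late erythroblast and reticulocyte genes (21 tested), iron uptake and storage (18), erythropoietin targets (11) and macrophages of erythroblastic islands (17). In them 2 genes were higher and 1 lower at an unadjusted p under 0.05, beside 3.81% and 10.3% of all tested genes. These were Ypel4 and Siglec1, a macrophage receptor, on the higher side and Pcbp1, an iron chaperone, on the lower, and their adjusted p lay between 0.343 and 0.350 (edgeR). Without No MM 3 and No MM 4, the unadjusted p of these 3 genes was 0.0944 to 0.225 (edgeR). The medians of these 4 lists were 0.18, 0.14, 0.19 and 0.45 over all libraries, and -0.38, -0.23, -0.19 and 0.04 without No MM 3 and No MM 4. The first 3 thus changed sign with those libraries, as Epor and Tfrc did.

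Lists of other cells that a bone digest can hold were read beside these. All 15 megakaryocyte and platelet genes had a positive log2 fold change (median 0.61, and 0.08 without No MM 3 and No MM 4), and 0 of the 15 passed an unadjusted p under 0.05. Of all tested genes 47.3% had a positive value, and so had 10 of 10 osteoblast, 13 of 14 neutrophil and 15 of 17 island macrophage genes. The megakaryocyte list's summed level was 285.1 to 2038 CPM in No MM and 863.3 to 3015 CPM in MM. The neutrophil list had a median of 0.19, the osteocyte list 0.04, the osteoblast list 0.14, the osteoclast list -0.22 and the proliferation list -0.09, each with 0 genes past an unadjusted p under 0.05. Leaving out No MM 3 and No MM 4 gave -0.34, -0.54, -0.48, -0.89 and -0.41 for these 5 lists, and all 10 osteoblast genes then had a negative value. Of the 15 B and plasma cell genes, 7 were lower and 0 higher in MM at an unadjusted p under 0.05 (edgeR). Of all tested genes, 10.3% were lower and 3.81% higher. Without No MM 3 and No MM 4, 1 of the 15, Mzb1, was lower, beside 3.37% of all tested genes. The 4 genes with the smallest p were Mzb1, Xbp1, Sdc1 and Irf4, all linked to plasma cells. Of the 15, 7 had a positive value, and the B cell genes Cd79a (2.00 to 2.97 CPM there, 44.6 to 100.5 CPM elsewhere) and Pax5 were lowest in No MM 3 and No MM 4. How far these lists bear on the erythroid values was not tested.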

How the data were processed

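RNA-seq of total RNA (stranded kit, 76-base paired ends) gave 1 library per mouse for 5 No MM and 5 MM mice, each assigned to its group by its label. The authors deposited 1 table of genes by libraries. Its read counts per gene are raw. A second set of deposited columns (signal) holds those counts after division by a library size factor that ran from 0.765 to 1.20. The FPKM columns were made by the authors per kilobase of gene length. The labels' processing notes name FastQC 0.11.5 and STAR. Counter, settings and build are not given in the sources used here, and gene positions match GRCm38. The deposited columns of log2 fold changes and p-values hold the authors' own comparison and were not used.

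The counts were tested with edgeR 4.0.16 (R 4.3.3, filterByExpr, TMM, quasi-likelihood test, Benjamini-Hochberg over 16186 genes, calls at adjusted p under 0.05), with DESeq2 1.42.0 and other scalings, filters and libraries as alternatives. Biological replicates are mice. In the table of all genes, the common biological coefficient of variation was 0.460. The test was checked beforehand on simulated counts. The simulation gave each gene the same spread in both groups, so it does not cover the unequal spread of No MM and MM found here. Log2 CPM for correlations used a prior count of 2. Ratios used an exact permutation test (SciPy 1.17.1), shares a Wilson interval at 95%, and sequences Biopython 1.88. The 9 genes and the 16 lists, of whose 237 entries 234 matched the table, were chosen with earlier results of these data known. From each list the genes named were among the 4 with the smallest edgeR p, besides the listed embryonic globins and Dmp1 and Sost as defining osteocyte genes, and the genes most like a member were the 5 with the highest Pearson r, of which 1 is not reported here.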

Additional observations from a re-analysis of the deposited data

Results flagged for a closer look

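In the set of 36 groups of 5 values examined (the 9 genes, the ratios and the globin share in each group), 1 sample stood apart from the rest of its group by Dixon's test at the 95% level. This was the ratio of Slc4a1 to Alas2 counts in MM 8, at 2.36, where the other 4 MM libraries lay between 1.31 and 1.503. The gap to its nearest neighbour was 0.813 of the range of the group, with a critical value of 0.71 for 5 samples. Chance alone gives about 1 such sample in 20 groups, or 1.8 among 36.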

How the results depend on the processing

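The call of 0 genes in either direction, over all genes and over the 9, held in edgeR under RLE and upper quartile size factors, library totals only, globin or immunoglobulin genes left out of the scaling, no filter on low counts, a minimum of 10 counts in every library and each library left out in turn. DESeq2 called 34 genes higher and 155 lower in MM, and 0 of the 9. Of the fold changes, those of Alas2 and Slc4a1 turned to 0.040 and 0.20 with library totals only. Without No MM 3 and No MM 4, Epor turned to -0.018, Tfrc to -0.19, the log2 ratio of Klf1 to Alas2 (MM minus No MM) to 0.040 and that of Tfrc to Alas2 to 0.60, and that of Epor to Alas2, 0.18 over all libraries, came to 0.75. In each of these the cause was not tested. With each library left out in turn, the fold change ranged from -0.77 to 0.61 for Hba-a1, -0.75 to 0.63 for Hba-a2, -0.69 to 0.48 for Hbb-bs, -0.87 to 0.43 for Hbb-bt, -0.56 to 0.54 for Alas2, -0.41 to 0.77 for Slc4a1, -0.68 to 0.69 for Klf1, 0.28 to 0.95 for Epor and 0.10 to 0.57 for Tfrc. The values above 0 of the first 7 genes came without No MM 1, and for Slc4a1 also without MM 6 (0.10). The log2 ratios to Alas2 ranged from -0.094 to 0.036 for the globins (above 0 without No MM 1), -0.028 to 0.22 for Slc4a1 (below 0 without MM 8), -0.27 to 0.083 for Klf1, -0.090 to 0.46 for Epor (below 0 without No MM 1) and -0.58 to 0.30 for Tfrc (above 0 without No MM 3). Klf1 to Alas2 changed sign without No MM 1, No MM 4, MM 6, MM 9 or MM 10. The difference in globin share ranged from -0.55 (without No MM 3) to 0.58 percentage points (without No MM 1), from -0.14 over all libraries. No ratio reached an exact permutation p under 0.05 in any setting. No paired analysis was possible because no replicate number occurs in both groups. At 31099174 reads or more per library, depth did not limit the 9 genes, whose lowest count was 123.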

Other observations

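Fam132b encodes erythroferrone, a hormone that erythroblasts release under erythropoietin and that lowers hepcidin in the liver. It was chosen here after its values were seen. It had 29.7, 1.10, 0.743, 6.93 and 2.08 CPM in No MM 1 to No MM 5 and 1.22, 1.92, 38.6, 3.53 and 2.84 CPM in MM 6 to MM 10, so 1 library of each group stood above all others. MM 8 was also the library with the highest ratios of Slc4a1 (2.36) and Klf1 (0.199) to Alas2, while its globin to Alas2 ratio of 17.3 was near the low end. No MM 1 had the highest globin to Alas2 ratio, 23.3, and the highest level of 7 of the 9 erythroid genes. Its Slc4a1 to Alas2 ratio was 1.48, below those of MM 7 (1.503) and MM 10 (1.496), and its Klf1 to Alas2 ratio was 0.135. No MM 4 had the third highest Fam132b level and the second highest ratios of Slc4a1 (1.94) and Klf1 (0.163) to Alas2. A link between Fam132b and these ratios was not tested.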
